A study of Mus musculus with 4 samples.

Results

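The 9 genes described here encode the histone deacetylases HDAC1, HDAC2, HDAC3, HDAC4, HDAC5 and HDAC7, the corepressor NCOR1, the ubiquitin ligase scaffold CUL3 and the histone methyltransferase EZH2. They were chosen by symbol, and all 9 of them were found among the 31053 genes counted. Transcripts were counted in single thymic invariant natural killer T (iNKT) cells, T cells with a nearly fixed receptor for lipids presented by CD1d. The cells came from 2 C57BL/6 wildtype mice and from 2 Hivep3-/- mice on the C57BL/6 background, untreated and 8 to 9 weeks old, with 1 library per mouse. Hivep3 is disrupted in every cell of these mice, not in iNKT cells alone. Tetramer-binding thymocytes had been sorted as an equal mix of CD44low and CD44high cells, so the sort set part of every class size. The comparison asks how the levels of these regulators differ between the stages of iNKT development and between the genotypes.

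Histone deacetylases remove acetyl groups from histones and are found in repressor complexes. HDAC1, HDAC2 and HDAC3 belong to class I and are mostly nuclear, and HDAC3 works inside the complex built on NCOR1. HDAC4, HDAC5 and HDAC7 belong to class IIa, bind MEF2 factors and move between nucleus and cytoplasm when they are phosphorylated after receptor signalling. PLZF, encoded by Zbtb16, is the transcription factor that gives iNKT cells their effector programme. Its BTB domain binds NCOR1 and related corepressors, and PLZF carries CUL3 into the nucleus of iNKT cells. EZH2 is the catalytic subunit of the polycomb complex PRC2, which methylates histone H3 at silenced genes. HDAC7 is abundant in double positive thymocytes and is known to restrain the PLZF programme during thymic selection.

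In all, 19647 cells passed the thresholds on genes, UMIs (unique molecular identifiers, each 1 captured transcript) and mitochondrial share, between 3651 and 7231 per library. C57BL/6 cells were shallower, with medians of 4596 and 5268 UMIs per kept cell against 6833 and 6491 in Hivep3-/-. The libraries shared 185 barcodes. Xist was counted in C57BL/6 replicate 1 (14609 UMIs against 3 to 25 in the other 3 libraries), and transcripts of the Y chromosome in the other 3 only, so that this library differed from the rest in sex. The study describes its C57BL/6 mice as female, but C57BL/6 replicate 2 had 4120 UMIs of Y-linked genes and 4 of Xist. Both Hivep3-/- libraries had Y-linked transcripts, so sex was not balanced between the genotypes. Hivep3 itself was counted in both genotypes, at 210.1 and 241.1 CPM in stage 0-like cells of C57BL/6 and 488.9 and 256.4 CPM in those of Hivep3-/-. A count taken at the 5′ end does not show which exons a transcript held, so it did not check the disruption.

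Cells were assigned to classes by clustering without the 9 genes, and each class was named from marker genes. Stage 0-like cells numbered 121 to 423 per library, cycling-like cells 224 to 1331, iNKT2-like cells 423 to 1469, iNKT17-like cells 127 to 224 and iNKT1-like cells 2400 to 3535. The 14 markers of stage 0 summed to 7447 to 9090 CPM in stage 0-like cells and to at most 2910 CPM elsewhere in these classes, cluster 6 included, and the 14 markers of iNKT17 cells to 2840 to 3484 CPM in iNKT17-like cells. The 9 iNKT2 markers separated less, at 860.2 to 1032 CPM in iNKT2-like, 675.7 to 822.6 CPM in stage 0-like cells and 602.2 to 861.7 CPM in cluster 6. The 24 cycling markers summed to 8066 to 14090 CPM in cycling-like and 5162 to 6061 CPM in stage 0-like cells. These lists also named the clusters, so high sums in the named class were partly set in advance. Cluster 6, marked by Tnni1, Htra3 and Klrb1a, had 2 stage 0 markers among its top genes, fewer than the 3 needed, and stayed unnamed. Its stage 0 markers summed to 2659 to 2910 CPM and its iNKT1 markers to 2068 to 2867 CPM. It held 217 and 35 cells of C57BL/6 and 259 and 346 cells of Hivep3-/-. Levels are given in CPM, the UMIs of a gene per 1000000 UMIs of a library's cells in that class, with TMM scaling between the sums. A sum over cells does not tell fewer transcript-bearing cells from less transcript per cell.

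Ezh2 (ENSMUSG00000029687, chromosome 6, 47530139 to 47595341, minus strand, GRCm38) had the widest range across stages of the 9 genes, and it was highest in cycling-like and stage 0-like cells. Its mean over the 4 libraries was 123.1 CPM in cycling-like cells (96.53 to 173.9), 82.45 CPM in stage 0-like cells (65.99 to 92.07) and 19.16 CPM in iNKT2-like cells (14.59 to 24.05). Its mean was 11.63 CPM in iNKT17-like cells (9.528 to 13.96) and 11.12 CPM in iNKT1-like cells (10.01 to 12.19), the last of these 11.07-fold below the cycling-like mean. The libraries of the first 3 classes did not overlap with those of the class next below, while iNKT17-like and iNKT1-like levels overlapped. These differences between classes are descriptions without a test, because the classes were made from the same cells.

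The genes whose levels went most closely with Ezh2 over the 20 sums of 5 classes and 4 libraries were Anp32e (Pearson r = 0.986), a histone chaperone, Stmn1 (r = 0.983), a microtubule destabilizer, and Cks1b (r = 0.982), a partner of cyclin-dependent kinases. The 20 sums share libraries and depth, and the r values are descriptions over 5320 genes compared. Stmn1 is itself a cycling marker, and Cks1b was among the top genes of a cycling-like cluster. Naming classes by such genes partly set these correlations in advance. The promoter windows of Ezh2 and of the genes of this pattern that the RefSeq table of GRCm38.p6 held are shown because these genes moved together across stages. Each runs 5′ to 3′ on the gene's strand from 250 bases before the transcription start to 50 bases after it, and capitals mark matches on either strand to the letters of 3 cell cycle motifs, the CCAAT box (CCAAT), the CHR element (TTTGAA or TTCGAA) and the E2F site (TTTCCCGC, TTTCGCGC, TTTGCCGC or TTTGGCGC).
Ezh2, chr6:47594981-47595280, minus strand: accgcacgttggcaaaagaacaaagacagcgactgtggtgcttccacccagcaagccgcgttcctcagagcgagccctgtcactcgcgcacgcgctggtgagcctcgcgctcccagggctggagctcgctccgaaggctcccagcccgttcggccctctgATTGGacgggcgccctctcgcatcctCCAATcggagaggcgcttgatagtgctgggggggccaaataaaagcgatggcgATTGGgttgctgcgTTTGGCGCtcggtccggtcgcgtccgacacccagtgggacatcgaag
Anp32e, chr3:95929007-95929306, plus strand: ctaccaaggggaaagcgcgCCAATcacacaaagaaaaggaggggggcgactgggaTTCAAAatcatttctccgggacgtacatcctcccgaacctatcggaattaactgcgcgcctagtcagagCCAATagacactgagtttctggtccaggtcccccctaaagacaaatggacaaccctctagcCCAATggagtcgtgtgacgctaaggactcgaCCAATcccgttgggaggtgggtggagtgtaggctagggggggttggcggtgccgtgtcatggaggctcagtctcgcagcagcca
Cks1b, chr3:89418242-89418541, minus strand: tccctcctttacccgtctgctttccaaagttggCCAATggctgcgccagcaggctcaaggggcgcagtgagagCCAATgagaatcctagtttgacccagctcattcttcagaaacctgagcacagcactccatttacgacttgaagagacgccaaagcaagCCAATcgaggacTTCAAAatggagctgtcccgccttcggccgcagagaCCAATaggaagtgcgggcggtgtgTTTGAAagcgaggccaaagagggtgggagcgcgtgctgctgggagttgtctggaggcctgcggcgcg

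The Ezh2 window held 3 CCAAT matches and 1 E2F match (TTTGGCGC), which began at base 4 after the start. The Anp32e and Cks1b windows held 4 CCAAT matches each and 1 and 2 CHR matches. Of 32851 windows in the table, 37.4% held CCAAT letters, 19.2% CHR letters and 2.26% E2F letters. The table had windows for 7 of the 9 genes, and no E2F match was found in those of Hdac2, Hdac4, Hdac5, Hdac7, Ncor1 or Cul3. The Hdac5 window held CTATTTTTAG, a match to the MEF2 motif that began 20 bases before the start, and 0.557% of all windows held such a match. TTCAAA and ATTGG are CHR and CCAAT letters read from the other strand. These matches describe letters only and do not show that a factor bound.

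Ezh2 levels were also uneven inside the classes. Cluster 11 of the cycling-like cells had 275.7 and 246.1 CPM in C57BL/6 and 250.1 and 309.7 CPM in Hivep3-/-, while cluster 8, also cycling-like, had 40.11, 35.66, 24.69 and 72.78 CPM in the same order. These levels per cluster are on unscaled sums. Between genotypes Ezh2 did not pass the test in any class. In stage 0-like cells it had 86.51 and 92.07 CPM in C57BL/6 and 65.99 and 85.23 CPM in Hivep3-/-, a log2 difference of -0.27 (95% interval -0.68 to 0.14). In iNKT2-like cells it had 24.05 and 21.80 CPM against 14.59 and 16.21 CPM, without overlap (log2 difference -0.57, SE 0.20), but the edgeR quasi-likelihood p of 0.0228 became 0.453 after Benjamini-Hochberg adjustment over all genes tested. Groups without overlap made up 39.8% of all genes tested in iNKT2-like cells.

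The class I deacetylases were also higher in cycling-like and stage 0-like than in iNKT1-like cells, with a smaller range than Ezh2. Hdac1 (ENSMUSG00000028800, chromosome 4, 129516104 to 129542713) had means between 87.10 CPM in iNKT1-like cells and 146 CPM in cycling-like cells, a 1.676-fold range, and each class overlapped with its neighbour in this order. Hdac2 (ENSMUSG00000019777, chromosome 10, 36974544 to 37001889) was highest in stage 0-like cells at 105.3 CPM (92.42 to 112.8) and cycling-like cells at 98.85 CPM (92.95 to 101.9). Both were above the iNKT17-like (72.89 CPM), iNKT2-like (63.67 CPM) and iNKT1-like means (54.40 CPM), and the highest iNKT17-like library, at 81.90 CPM, was below the lowest cycling-like one. In all 4 libraries Hdac2 was higher in stage 0-like than in iNKT1-like cells, by 0.94 ± 0.05 on the log2(CPM + 1) scale (SD, n = 4 libraries). Hdac3 (ENSMUSG00000024454, chromosome 18, 37935844 to 37955016), the catalytic partner of NCOR1, ran from 52.30 CPM in cycling-like cells to 29.02 CPM in iNKT1-like cells and was higher in stage 0-like than in iNKT1-like cells in all 4 libraries, by 0.69 ± 0.16 (log2). Over the 20 sums Hdac1, Hdac2 and Hdac3 correlated with Ezh2 at r = 0.792, 0.844 and 0.854. Between genotypes the 3 genes differed in stage 0-like cells by log2 values of 0.17 (-0.21 to 0.54), 0.13 (-0.25 to 0.51) and 0.28 (-0.15 to 0.71), all within intervals that included 0.

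The class IIa genes Hdac4 and Hdac5 had lower means in stage 0-like cells than in the effector classes. Hdac4 (ENSMUSG00000026313, chromosome 1, 91928779 to 92195699) had a mean of 7.338 CPM in stage 0-like cells (3.761 to 9.865), 9.621 CPM in cycling-like, 12.69 CPM in iNKT2-like, 14.49 CPM in iNKT17-like and 19.23 CPM in iNKT1-like cells (15.57 to 21.52). Neighbours in this order overlapped, but stage 0-like and iNKT1-like libraries did not, and the log2 ratio of stage 0-like over iNKT1-like was -1.33 ± 0.33. Hdac4 rested on few transcripts in stage 0-like cells, 7 to 27 UMIs per library. Hdac5 (ENSMUSG00000008855, chromosome 11, 102194432 to 102230166) was highest in iNKT17-like cells, with 48.07 and 31.99 CPM in C57BL/6 and 49.37 and 32.40 CPM in Hivep3-/-, and lowest over the 4 libraries in stage 0-like cells, with a mean of 13.70 CPM (9.543 to 23.57), though in Hivep3-/- the cycling-like mean (15.40 CPM) was below the stage 0-like one (16.55 CPM). In all 4 libraries it was lower in stage 0-like than in iNKT17-like cells, by log2 values of -2.06 and -1.46 in C57BL/6 and -1.04 and -1.66 in Hivep3-/-. The gene most like Hdac5 over the 20 sums was Laptm5 (r = 0.93), a lysosomal membrane protein that lowers T cell receptor levels. Hdac4 was most like Ppp2r5a (r = 0.889), a regulatory subunit of protein phosphatase 2A.

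Ncor1 and Cul3, which encode proteins that PLZF binds or carries, were not highest where Zbtb16 was highest. Ncor1 (ENSMUSG00000018501, chromosome 11, 62316426 to 62458541) had 202.3 CPM in iNKT17-like cells (167.5 to 252.1), above every library summed over the cells of the other classes, whose means lay between 109.8 CPM in cycling-like and 127 CPM in iNKT1-like cells and overlapped. In each library Ncor1 was higher in iNKT17-like than in stage 0-like cells, with a log2 ratio of stage 0-like over iNKT17-like of -0.80 ± 0.11. Within the stage 0-like class, cluster 10 had Ncor1 at 158.5, 218.1, 175.8 and 199 CPM, near the 165.7, 245.2, 196.1 and 202.2 CPM of the iNKT17-like cluster 9, while cluster 7 had 106.6 to 142.9 CPM (unscaled sums). Among the genes most like Ncor1 was Ccr6 (r = 0.874), a chemokine receptor that marks iNKT17 cells. Cul3 (ENSMUSG00000004364, chromosome 1, 80264923 to 80340480) was lowest in stage 0-like cells, at 19.75 CPM (18.27 to 20.83), and highest in iNKT1-like cells, at 40.05 CPM (32.80 to 53.53), where all 4 libraries were above all 4 stage 0-like ones. Zbtb16 had its highest mean in iNKT2-like cells, at 279.3 CPM (251.2 to 353.9), and its lowest in iNKT1-like cells, at 57.96 CPM (41.53 to 85.55).

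**Figure D1:**
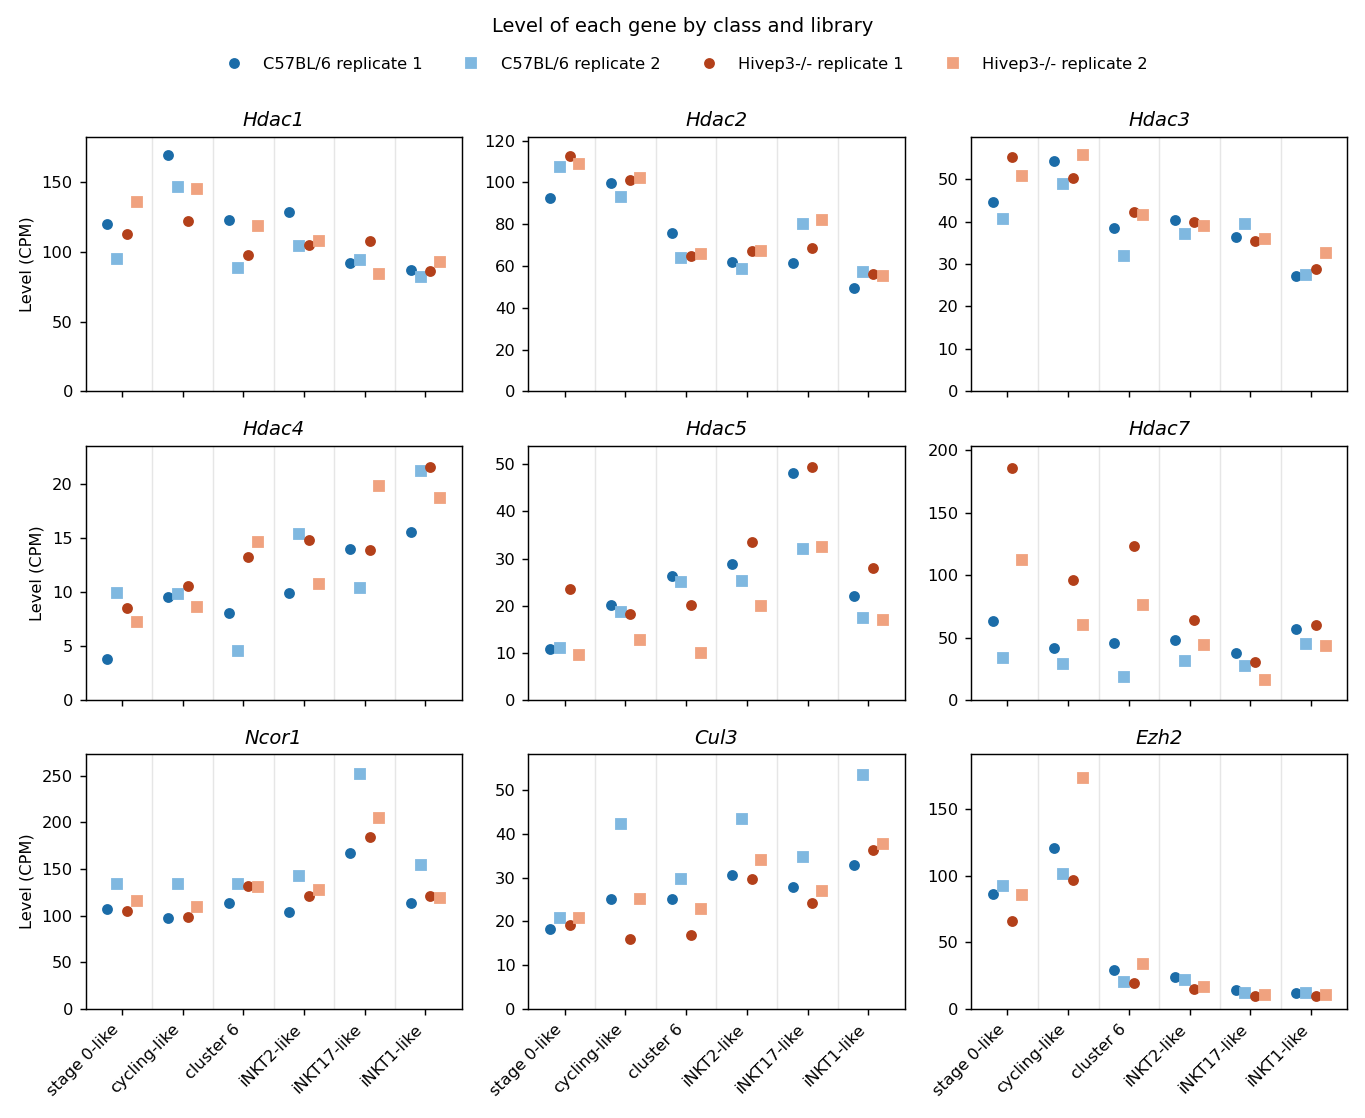
Level (CPM, linear axis from 0) of each of the 9 genes in 5 named classes and cluster 6, 1 point per library. Ezh2 is high in stage 0-like and cycling-like cells (65.99 to 173.9 CPM) and below 35 CPM in the other 4 classes, and the 2 Hivep3-/- points of Hdac7 lie above both C57BL/6 points in stage 0-like cells, cycling-like cells and cluster 6.

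Hdac7 (ENSMUSG00000022475, chromosome 15, 97792664 to 97844502, minus strand) was the gene of this set that differed between genotypes. In stage 0-like cells it had 63.41 and 33.98 CPM in the C57BL/6 libraries (118 and 31 UMIs) and 185.4 and 112.5 CPM in the Hivep3-/- libraries (590 and 342 UMIs). Both Hivep3-/- libraries were above both C57BL/6 libraries. Hdac7 rose by 1.53 on the log2 scale (SE 0.29, 95% interval 0.90 to 2.16), and the edgeR quasi-likelihood test gave an adjusted p of 0.0446 over the 8942 genes tested. It was the single gene of the 9 called in this class, where 0.582% of all tested genes were called. Groups that did not overlap were common among all genes tested, at 39.1% in stage 0-like cells. The call was lost when the clustering used a resolution of 0.4 (adjusted p = 0.0744) or no correction between libraries (adjusted p = 0.0738). Hdac7 is one of 26 genes the study named as differing on these same samples, so its call is not independent evidence of the direction.

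The 8 other genes of the set did not pass the test in stage 0-like cells. Their log2 differences ran from -0.27 for Ezh2 to 0.60 for Hdac5, whose libraries overlapped at 10.75 and 10.96 CPM in C57BL/6 and 23.57 and 9.543 CPM in Hivep3-/-. Their lowest adjusted p was 0.742. The interval for Hdac4 was -0.75 to 1.48 and that for Hdac5 was -0.43 to 1.62, the second of which reached past the value of Hdac7. The median log2 difference of the 9 genes was 0.17, beside 0.02 over all genes tested.

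**Figure D2:**
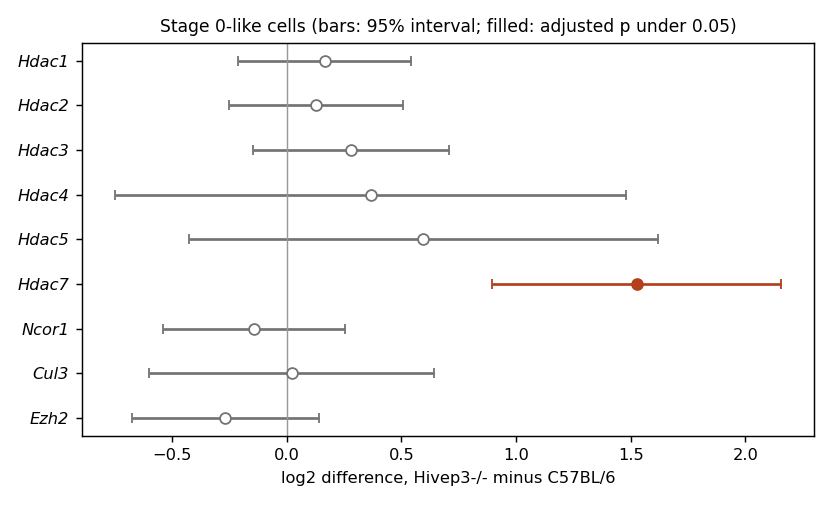
Log2 difference between genotypes (Hivep3-/- minus C57BL/6, x axis) of the 9 genes in stage 0-like cells, with 95% intervals from the edgeR fit over 2 libraries per genotype. Hdac7 lies at 1.53 (0.90 to 2.16) and is the single filled point, while the other 8 intervals include 0.

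Hdac7 was higher in Hivep3-/- libraries in both clusters that made up the stage 0-like class. In cluster 7 Hdac7 had 46.10 and 31.26 CPM in C57BL/6 and 218.5 and 117.8 CPM in Hivep3-/-, on unscaled sums. In cluster 10, in which Zbtb16 was at 27.34 and 8.388 CPM in C57BL/6 and at 1.724 and 1.877 CPM in Hivep3-/-, Hdac7 had 155.8 and 83.88 CPM against 275.8 and 178.3 CPM. Few transcripts lay behind these levels, 10 and 1 against 1 and 1 UMIs for Zbtb16 and 57 and 10 against 160 and 95 UMIs for Hdac7. The groups did not overlap in either cluster, beside 39.07% of all genes tested in the whole class. The share without overlap was not taken per cluster, and no test was run per cluster. Cluster 7 made up 52.21% and 61.98% of stage 0-like cells in C57BL/6 and 57.33% and 56.50% in Hivep3-/-. The class sums weight the clusters by UMIs, not by cells. Hdac1, at similar levels in both clusters, had 180 and 73 UMIs in C57BL/6 and 263 and 325 UMIs in Hivep3-/- in cluster 7. In cluster 10 it had 43 and 14 against 97 and 88 UMIs. Cluster 7 thus weighed more in the class sums than in cell numbers. The 8 markers of double positive thymocytes, in which HDAC7 is known to be abundant, summed to 128.5 and 120.1 CPM in stage 0-like cells of C57BL/6 and to 107.5 and 168.5 CPM in those of Hivep3-/-, so that the genotypes overlapped. None of the 8 markers was at 0 over the 4 libraries together, and Rag1 and Rag2, which mark these thymocytes, had 1 to 15 UMIs per library. Of the lists for other cells, the 5 gamma-delta T cell markers summed to 17.76 and 40.45 CPM in C57BL/6 against 4.709 and 6.464 CPM in Hivep3-/-, the 4 regulatory T cell markers to 4.144 and 6.321 against 1.962 and 3.422 CPM, and the 7 late iNKT1 markers to 172.9 and 104.9 against 67.89 and 89.36 CPM. The 24 cycling markers summed to 5357 and 5162 against 6053 and 6061 CPM and the 15 iNKT1 markers to 394.3 and 443.7 against 377.5 and 385.2 CPM, also without overlap. Cldn10, itself a stage 0 marker, was called higher in Hivep3-/- (116.6 and 103 against 235.7 and 224.4 CPM, log2 1.03, edgeR adjusted p = 0.0181). The stage 0 markers Cd24a (log2 0.51), Itm2a (0.13) and Lef1 (-0.29) were not called (edgeR adjusted p = 0.460, 0.882 and 0.687). The 14 stage 0 markers together summed to 7924 and 7447 against 9090 and 7805 CPM, with overlap. None of the markers in these lists was at 0, and their part in the Hdac7 difference was not tested. The 8 B cell markers, 3 of them at 0, and the 8 myeloid markers, 5 of them at 0, overlapped between genotypes. Without C57BL/6 replicate 1, the library with Xist, the log2 difference of Hdac7 was 2.05 (edgeR adjusted p = 2.74e-06), with the remaining C57BL/6 library assumed to vary like the others.

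In iNKT1-like, iNKT2-like and iNKT17-like cells Hdac7 levels overlapped between genotypes. In iNKT1-like cells Hdac7 had 57.03 and 45.19 CPM in C57BL/6 and 59.89 and 43.19 CPM in Hivep3-/-, a log2 difference of -0.002 with an interval of -0.47 to 0.46. In iNKT2-like cells the values were 48.30 and 31.22 CPM against 63.83 and 43.93 CPM (log2 0.42, interval -0.16 to 1.005). In iNKT17-like cells they were 37.99 and 27.28 CPM against 30.32 and 16.20 CPM (log2 -0.50, interval -1.26 to 0.26). Leaving out single libraries moved the iNKT2-like value, which was 0.79 when C57BL/6 replicate 1 was left out and 0.12 when Hivep3-/- replicate 1 was. It moved the iNKT17-like value between -1.04 (without Hivep3-/- replicate 1) and -0.13 (without Hivep3-/- replicate 2). Hdac7 was called in none of these fits.

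The genotype effect on Hdac7 differed between stage 0-like cells and these 3 classes by the interaction test of edgeR with library as a block. The effect in iNKT1-like cells was lower than that in stage 0-like cells by a log2 difference of -1.53 (SE 0.17, adjusted p = 9.28e-07), in a comparison that called 3.63% of all genes. For iNKT17-like cells the difference was -2.08 (SE 0.29, adjusted p = 0.000123), with 1.19% of genes called. For iNKT2-like cells it was -1.10 (SE 0.17, adjusted p = 0.00229), with 1.32% called. Without C57BL/6 replicate 1, the library with Xist, the last of these lost its call (log2 -1.27, adjusted p = 0.0860). For cycling-like cells the difference was -0.35 (interval -0.71 to 0.01, adjusted p = 0.406) and Hdac7 was not called, in a comparison with 2.87% of genes called.

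In cycling-like cells and cluster 6 both Hivep3-/- libraries were again above both C57BL/6 libraries for Hdac7. Of all genes tested, 49.1% did not overlap between genotypes in cycling-like cells and 43.79% in cluster 6. Cycling-like cells had 41.59 and 29.27 CPM in C57BL/6 and 96.21 and 60.28 CPM in Hivep3-/-, a log2 difference of 1.17 (SE 0.27, interval 0.54 to 1.81). The edgeR adjusted p was 0.0651, so Hdac7 was not called there, while DESeq2 called it at an adjusted p of 0.00218. Hdac7 also separated by genotype within each of the cycling-like clusters 4, 8 and 11, for example at 40.21 and 21.05 CPM against 163.9 and 73.59 CPM in cluster 11, and overlapped in cluster 14, at 34.80 and 44.01 CPM against 39.93 and 11.92 CPM. The mix of clusters moved with genotype in this class, since cluster 14 made up 1.35% and 3.08% of it in C57BL/6 and 16.1% and 5.04% in Hivep3-/-, and the 7 markers of late iNKT1 cells summed to 91.08 and 141.3 CPM against 1611 and 584.3 CPM. The 14 stage 0 markers summed there to 1470 and 1255 CPM against 2139 and 2316 CPM, the 15 iNKT1 markers to 469.5 and 577.6 against 2089 and 1352 CPM, and the 24 cycling markers to 8066 and 8863 against 10560 and 14090 CPM. The 8 double positive thymocyte markers, none at 0, summed to 24.54 and 9.827 CPM against 33.39 and 33.41 CPM. The lists for B cells (40.70 and 51.27 against 84.35 and 51.31 CPM, 4 of 8 markers at 0), myeloid cells (120.9 and 120.1 against 128.3 and 137.5 CPM, 4 of 8 at 0), regulatory T cells (4.810 and 5.839 against 4.569 and 1.846 CPM) and interferon iNKT1 cells (834.4 and 904.5 against 801 and 607.9 CPM) did not overlap either. Their part in the Hdac7 difference was not tested. In cluster 6 Hdac7 had 45.47 and 18.22 CPM against 123.7 and 75.95 CPM (log2 1.39, SE 0.33), with an edgeR adjusted p of 0.0506 and a DESeq2 adjusted p of 0.0157. The 15 iNKT1 markers summed there to 2068 and 2366 CPM against 2698 and 2867 CPM and the 7 late iNKT1 markers to 815.8 and 978.7 against 1421 and 1340 CPM. Higher in both Hivep3-/- libraries were also the sums of the cycling list (1694 and 1556 against 1974 and 1953 CPM), the iNKT17 list (204.4 and 183.8 against 355.8 and 259.4 CPM, 1 of 14 markers at 0), the double positive thymocyte list (6.955 and 11.94 against 35.50 and 12.42 CPM, 3 of 8 at 0), the B cell list (75.97 and 66.84 against 118.3 and 98.50 CPM, 5 of 8 at 0) and the myeloid list (139.1 and 119.4 against 139.8 and 147.3 CPM, 3 of 8 at 0). Lower in both were those of the iNKT2 list (744.7 and 861.7 against 652 and 602.2 CPM), the gamma-delta T cell list (130.5 and 281.7 against 116.5 and 130.2 CPM) and the regulatory T cell list (8.560 and 9.548 against 2.959 and 2.366 CPM), and the part of these lists was not tested. Leaving out single libraries moved the Hdac7 difference of cluster 6 between 0.97 (without Hivep3-/- replicate 1) and 2.39 (without C57BL/6 replicate 1). The C57BL/6 replicate 2 value there rested on 8 UMIs from 35 cells. Over all kept cells Hdac7 had 45.95 and 34.57 CPM against 77.08 and 53.11 CPM (log2 0.69, SE 0.22, edgeR adjusted p = 0.284), a value that also moves with the mix of classes.

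Within each genotype the order of classes for Hdac7 differed. In C57BL/6 the class means lay between 51.11 CPM in iNKT1-like cells and 32.64 CPM in iNKT17-like cells, a 1.566-fold range, and all neighbours overlapped. The stage 0-like sums pool clusters 7 and 10, which differed in Hdac7. In C57BL/6 cluster 7 had 46.10 and 31.26 CPM and cluster 10 had 155.8 and 83.88 CPM (57 and 10 UMIs), on unscaled sums. The small range between class means therefore does not show even levels within stage 0-like cells. In Hivep3-/- stage 0-like cells stood first at 149 CPM, above both libraries of every other named class, and iNKT17-like cells last at 23.26 CPM, a 6.405-fold range. The genes most like Hdac7 over the 20 sums were Wipi2 (r = 0.864), which acts in autophagy, Lims1 (r = 0.857), an adaptor of integrin signalling, and Ddx54 (r = 0.835), an RNA helicase.

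Zbtb16, the gene of PLZF, moved opposite to Hdac7 in stage 0-like cells. It had 200.4 and 161.1 CPM in C57BL/6 and 65.99 and 69.11 CPM in Hivep3-/-, and fell by 1.46 on the log2 scale (SE 0.16, edgeR adjusted p = 0.00216). Nearly all Zbtb16 UMIs of this class lay in cluster 7. Its share was 363 of 373 and 146 of 147 UMIs in C57BL/6 and 209 of 210 in each Hivep3-/- library. Cd24a was the gene of highest fold in cluster 10 but was not among the top genes of cluster 7. The fall in Zbtb16 was thus mostly that of cluster 7, at 274.3 and 217.3 against 106.2 and 99.66 CPM on unscaled sums, without a test. On scaled sums the C57BL/6 libraries were above the Hivep3-/- libraries for Zbtb16 in stage 0-like cells, in every other class and in all cells. On unscaled sums the genotypes overlapped in iNKT2-like cells (cluster 2, 313.1 and 228.9 against 247 and 230.3 CPM). They also overlapped in iNKT17-like cells (cluster 9, 274.7 and 200.3 against 204.3 and 154.3 CPM). Groups without overlap made up 35.18% of all genes tested in iNKT17-like cells and 49.1% in cycling-like cells. In cluster 6 Zbtb16 had 349.8 and 291.5 CPM against 165.6 and 143 CPM and fell by 1.10 (SE 0.16, edgeR adjusted p = 0.00400). In iNKT1-like cells (-0.85, adjusted p = 0.101), cycling-like cells (-0.62, adjusted p = 0.0982), iNKT17-like cells (-0.48, adjusted p = 0.871) and iNKT2-like cells (-0.28, adjusted p = 0.683) the edgeR test did not call it. In cycling-like cells it was called with the replicate block (-0.61, adjusted p = 0.0255), no low-count filter (0.00236), resolution 1.2 (0.0368) and no correction between libraries (0.0487), and in iNKT1-like cells with DESeq2 (0.00814) and no low-count filter (0.000288). The iNKT1-like cells lay in different clusters by genotype, with 61.27% and 59.04% of C57BL/6 but 36.72% and 34.75% of Hivep3-/- cells in cluster 0 and 19.38% and 16.98% against 32.89% and 39.25% in cluster 1. On unscaled sums Zbtb16 had 91.21 and 73.54 against 60.72 and 67.78 CPM in cluster 0 and 42.77 and 24.89 against 18.98 and 18.15 CPM in cluster 1, without overlap in either. The genotypes overlapped in cluster 3 (53.64 and 35.15 against 37.47 and 27.49 CPM) and cluster 5 (84.79 and 50.58 against 52.81 and 38.7 CPM) of this class. The 7 late iNKT1 markers summed in the class to 2414 and 2815 against 4862 and 5239 CPM, and the part of this mix in the iNKT1-like difference and its interaction was not tested. Its genotype effect was smaller in each of the 4 later classes than in stage 0-like cells by the interaction test, by 0.60 to 1.17 on the log2 scale, with edgeR adjusted p from 0.000209 to 0.0145. DESeq2 called the difference for iNKT2-like cells alone (adjusted p = 3.7e-06), and for iNKT1-like cells the edgeR call was lost without C57BL/6 replicate 2 (0.52, adjusted p = 0.0649) or Hivep3-/- replicate 1 (0.59, adjusted p = 0.0623). Zbtb16 is also among the genes the study named on these samples, so this is not independent evidence either.

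**Figure D3:**
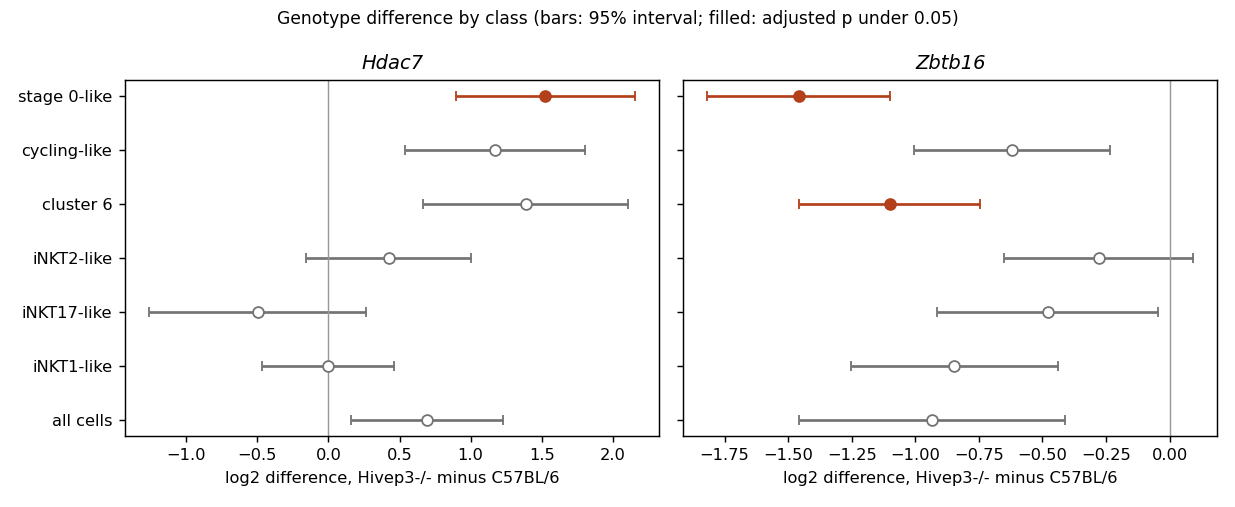
Log2 difference between genotypes (Hivep3-/- minus C57BL/6, x axis) of Hdac7 and Zbtb16 in each class and over all cells, with 95% intervals. Hdac7 lies above 1 in stage 0-like cells, cycling-like cells and cluster 6 and between -0.50 and 0.42 in iNKT2-like, iNKT17-like and iNKT1-like cells, while all values of Zbtb16 are below 0 and lowest in stage 0-like cells (-1.46).

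**Figure D4:**
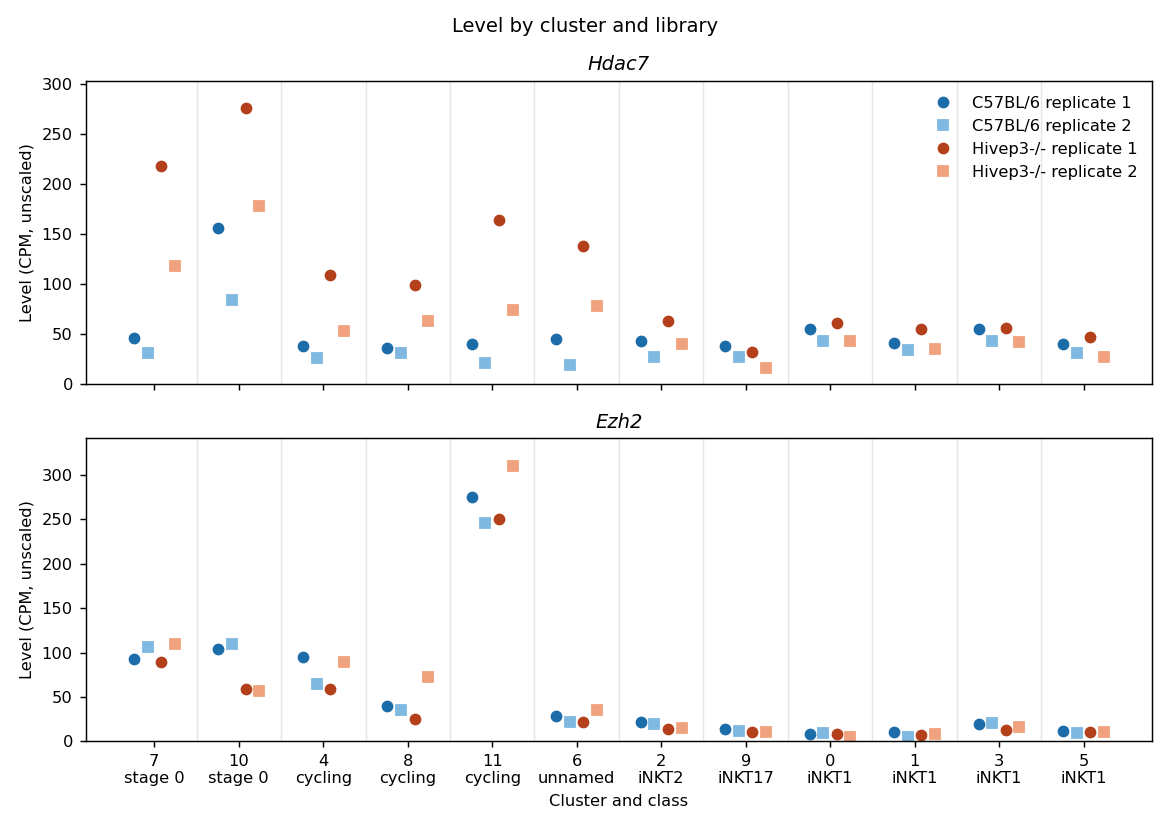
Level (CPM on unscaled sums, linear axis from 0) of Hdac7 and Ezh2 by cluster, 1 point per library, for clusters with at least 35 cells in every library. For Hdac7 both Hivep3-/- points lie above both C57BL/6 points in clusters 7, 10, 4, 8, 11 and 6, and the genotypes overlap in the other clusters, while Ezh2 reaches 246.1 to 309.7 CPM in cluster 11.

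Outside stage 0-like cells none of the 9 genes was called by edgeR in cycling-like cells, where 3.56% of all genes were called and 1 of the 9, Hdac7, had an unadjusted p under 0.05. The same held for iNKT2-like cells (0.367% of all genes called, with Ezh2 at an unadjusted p under 0.05), iNKT17-like cells (0.0657%, with none of the 9 at such a p), iNKT1-like cells (0.838%, also none), cluster 6 (2.94%, with Hdac7 and Hdac4) and all cells (0.765%, with Hdac7). Of all genes tested, 18.43% had such a p in cycling-like cells, 8.609% in iNKT2-like cells and 5.451% in iNKT17-like cells. The share was 9.066% in iNKT1-like cells, 13.4% in cluster 6 and 11.98% in all cells. DESeq2 called 1 of the 9 in stage 0-like cells (0.492% of all genes called), in cycling-like cells (3.77%) and in cluster 6 (1.88%), Hdac7 each time. It called 0 in iNKT2-like cells (0.754%), iNKT17-like cells (0.131%), iNKT1-like cells (1.98%) and all cells (3.36%). Apart from Hdac7 the log2 differences of the set lay between -0.64 (Cul3) and 0.33 (Ezh2) in cycling-like cells, between -0.57 (Ezh2) and 0.17 (Hdac2) in iNKT2-like cells, between -0.38 (Ezh2) and 0.44 (Hdac4) in iNKT17-like cells, and between -0.29 (Ezh2) and 0.18 (Hdac5) in iNKT1-like cells. In cluster 6 Hdac4 had 8.023 and 4.555 CPM (15 and 2 UMIs) against 13.23 and 14.62 CPM (log2 0.92, unadjusted p = 0.0406, edgeR adjusted p = 0.341), and Hdac5 lay at 26.21 and 25.05 CPM against 20.17 and 10.03 CPM (log2 -0.81, adjusted p = 0.395).

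The genes around this set were followed in 12 lists of 97 genes, among them the NCoR, SIN3, NuRD and CoREST complexes, PRC2, the CUL3 ligase and its neddylation factors, sirtuins, BTB zinc finger factors and the partners and kinases of class IIa deacetylases. In stage 0-like cells 88 of the 97 genes were tested and 2 were called, Hdac7 higher and Zbtb16 lower in Hivep3-/-, 2.27% beside the 0.582% of all genes. In cycling-like cells 1 of 90 was called, Sirt3, a mitochondrial deacetylase, at 7.316 and 5.917 CPM in C57BL/6 and 16.88 and 14.84 CPM in Hivep3-/- (log2 1.28, SE 0.25, edgeR adjusted p = 0.0376), 1.11% beside 3.56%. Its call was lost without C57BL/6 replicate 2 (adjusted p = 0.0801), without Hivep3-/- replicate 1 (0.102), without Hivep3-/- replicate 2 (0.0590) and with no correction between libraries (0.0929). In cluster 6 Zbtb16 was the 1 called of 86. None was called by edgeR among 89 tested in iNKT2-like cells, among 82 in the iNKT17-like class, among 92 in the iNKT1-like class or among 95 over all cells, where 4, 6, 6 and 7 had an unadjusted p under 0.05. Over all genes tested the shares at such a p were 8.609%, 5.451%, 9.066% and 11.98% in the same order. DESeq2 called 0 in iNKT2-like and iNKT17-like cells and Zbtb16 in iNKT1-like cells and over all cells.

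In stage 0-like cells the lists other than class IIa deacetylases and BTB factors had no called gene by edgeR or DESeq2, and 5 of their genes had an unadjusted edgeR p under 0.05. Of all genes tested in this class, 9.17% had such a p. The median log2 difference was 0.15 for class I deacetylases, 0.09 for sirtuins, 0.005 for the SIN3 complex, 0.07 for the NuRD complex, 0.15 for the CoREST complex and 0.03 for the CUL3 ligase and neddylation factors, beside 0.02 over all genes. It was 0.48 for the 4 class IIa deacetylases, Hdac9 included, and -0.09 for the BTB factors, and a list of class IIb and IV deacetylases had 1 of 3 genes tested, at 0.30. For PRC2, 10 of 11 genes were tested, with a median log2 difference of -0.12. Eed (59.11 and 35.08 against 42.73 and 53.31 CPM) and Suz12 (25.79 and 27.40 against 22.62 and 34.55 CPM), the core partners of EZH2, overlapped between genotypes, as did Ezh1, the second methyltransferase of PRC2 (11.28 and 15.35 against 15.08 and 7.569 CPM). For the partners and kinases of class IIa deacetylases 7 of 9 were tested (median -0.08). Mef2d, a MEF2 factor that HDAC7 binds, had 24.18 and 28.50 against 45.88 and 22.38 CPM. Nr4a1, a target of MEF2 and HDAC7 induced by T cell receptor signals, had 133.8 and 57 CPM in C57BL/6 and 371.7 and 116.8 CPM in Hivep3-/-, with overlap (log2 1.28, SE 0.46, edgeR adjusted p = 0.398). It is one of the genes the study named on these samples, and it was called without C57BL/6 replicate 1 (2.02, adjusted p = 2.08e-05), without Hivep3-/- replicate 2 (1.88, adjusted p = 0.000648) and with the replicate block (1.30, adjusted p = 5.18e-14), while without Hivep3-/- replicate 1 its difference was 0.20.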

How the data were processed

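Single-cell libraries of 2 C57BL/6 and 2 Hivep3-/- mice were analysed, with groups and replicate numbers from the sample labels. The authors deposited raw UMI counts per gene and cell barcode, and the barcode and gene lists, made with Cell Ranger on mm10 (the submitters' processing notes list Cell Ranger 3.1.0 and Seurat 3.1.4). Cells with 500 to under 4100 genes, at least 1000 UMIs and under 6% mitochondrial UMIs were kept. Clustering in R 4.3.3 with Seurat 5.3.0 used 2000 variable genes (without the 9 genes, the lists around them, Hivep3, 26 genes the study named, 6 sex-linked genes and T cell receptor segments), 30 components (irlba 2.3.5.1), a mutual nearest neighbour correction over 20 neighbours rewritten after fastMNN (RANN 2.6.2), and Louvain resolution 0.8. A cluster was named from at least 3 fixed markers among its 20 genes of highest fold, and not where another class had more among the top 10. This way of scoring was chosen after seeing the data, and differences from the study can arise from these rebuilt names. Scrublet in scanpy 1.11.5 (Python 3.11.15) marked 0, 4, 1 and 5 cells, too few to be taken as working, and doublets were left in.

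Cells are not replicates, so counts were summed per library and class (418924 to 21068346 UMIs) and genotypes compared with the two-sided quasi-likelihood test of edgeR 4.0.16 after filterByExpr and TMM, with p-values adjusted by Benjamini-Hochberg across every gene the class tested, and calls at an adjusted p under 0.05. DESeq2 1.42.0 was an alternative. Intervals are 95% intervals of the fit. The class scripts were tested on simulated data. The 9 genes, lists, classes and tests were chosen with earlier results of these data known. All 9 genes were described, with list genes that were called and Zbtb16, Mef2d, Nr4a1, Ezh1, Eed and Suz12 (1 further gene of that rule is not reported here), and the 3 genes most like each of the 9 (mean of at least 20 CPM, log2(CPM + 1)) were ranked. Hdac1, Hdac3 and Stmn1 had no entry in the promoter table. Positions are from GENCODE vM21, which held 30934 of 31053 gene identifiers.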

Additional observations from a re-analysis of the deposited data

Results flagged for a closer look

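The genotype effect on Hdac7 differed between stage 0-like cells and 3 later classes by the edgeR interaction test, with log2 differences of -1.10 for iNKT2-like cells, -2.08 for iNKT17-like cells and -1.53 for iNKT1-like cells. The effect on Zbtb16 differed between stage 0-like cells and all 4 later classes, with log2 differences of 0.83 for cycling-like cells, 1.17 for iNKT2-like cells, 0.95 for iNKT17-like cells and 0.60 for iNKT1-like cells. Nearly all Zbtb16 UMIs of stage 0-like cells lay in cluster 7. With DESeq2 the Zbtb16 differences for cycling-like, iNKT17-like and iNKT1-like cells had adjusted p of 0.0549, 0.0742 and 0.0771.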

How the results depend on the processing

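With 2 libraries per genotype the precision was low for genes of few UMIs. In stage 0-like cells Hdac7 was the 1 gene of the 9 called in every fit that left out 1 library (log2 1.10 to 2.05) and in all other alternatives except resolution 0.4 (0 called, log2 1.47) and no correction between libraries (0 called, log2 1.32), whose cause was not tested. In cycling-like cells, where 0 genes of the set were called, 1 was called, Hdac7, with DESeq2, no low-count filter, the replicate block, resolution 0.4 and resolution 1.2, and 0 to 1 without single libraries (1 without C57BL/6 replicate 1 or Hivep3-/- replicate 2, with Hdac7 at 0.76 to 1.49). In cluster 6 the 0 became 1, again Hdac7, with RLE size factors, DESeq2, no low-count filter, the replicate block and the highest doublet scores removed, and 1 to 2 without single libraries (Hdac5 was added without Hivep3-/- replicate 1). Over all cells Hdac7 was called without the low-count filter, 1 in place of 0. For the difference between cycling-like and stage 0-like effects 0 to 1 genes were called without single libraries (Ezh2, without C57BL/6 replicate 1 or Hivep3-/- replicate 1) and 1, Ezh2, with the highest doublet scores removed. For iNKT2-like cells 0 to 1 were called without single libraries (0 without C57BL/6 replicate 1, with Hdac7 at -1.27 to -1.02), and for iNKT17-like cells DESeq2 gave Hdac7 no adjusted p (NA). Values near 0 changed sign. Without single libraries the stage 0-like log2 differences ran from -0.041 to 0.27 for Hdac2, from -0.41 to 1.07 for Hdac4, from -0.22 to 1.09 for Hdac5, from -0.36 to 0.058 for Ncor1 and from -0.15 to 0.14 for Cul3, and Cul3 was -0.006 with DESeq2 and -0.047 without correction between libraries. The iNKT1-like value of Hdac7 ran from -0.25 to 0.21 without single libraries and was 0.01 with no low-count filter, 0.046 at resolution 1.2, 0.046 without correction and 0.038 with the study's genes kept for clustering. Ezh2 ran from -0.145 (without Hivep3-/- replicate 2) to 0.652 in cycling-like cells and was 0.072 in iNKT1-like cells at resolution 0.4, and Hdac5 ran from -0.218 (without Hivep3-/- replicate 1) to 0.488 in iNKT1-like cells. None of these sign changes had an adjusted p below 0.663. Of 991 fits of other differences, whose log2 values are not given here, 100 changed sign, none below 0.494.

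Counts over all genes ranged from 28 (resolution 0.4) to 434 (replicate block) beside 52 in stage 0-like cells, from 258 to 1110 beside 368 in cycling-like cells, from 0 to 285 beside 35 in iNKT2-like cells, from 5 to 93 beside 5 in iNKT17-like cells, from 0 to 540 beside 91 in iNKT1-like cells, from 124 to 616 beside 269 in cluster 6 and from 14 to 965 beside 94 over all cells. The libraries share the replicate numbers 1 and 2, but no label says that a number marks a shared litter or day. Deviations of same-numbered libraries correlated at 0.122 in stage 0-like cells and between 0.013 and 0.162 elsewhere, with 2 pairs, and the replicate block gave Hdac7 a log2 difference of 1.59 in stage 0-like cells, 1.18 in cycling-like cells and 1.56 in cluster 6. The interaction tests at resolution 1.2, without correction, with the study's genes kept and without the highest doublet scores (5% of cells) were added after seeing the data.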

Other observations

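Cluster 10, the stage 0-like cluster in which Zbtb16 was lowest (1 to 10 UMIs per library), had the highest Hdac7 level of C57BL/6 among clusters with at least 35 cells in every library. That level was 155.8 and 83.88 CPM, on 57 and 10 UMIs. In the same cluster Ezh2 was at 103.9 and 109.1 CPM in C57BL/6 and at 58.61 and 56.31 CPM in Hivep3-/-, without overlap, while in cluster 7 it was at 92.95 and 105.7 CPM against 89.43 and 109.2 CPM, with overlap. The cluster 10 values of Ezh2 rested on 38 and 13 against 34 and 30 UMIs. Groups without overlap made up 39.07% of all genes tested in the whole stage 0-like class. No test was run per cluster, and the share without overlap was not taken per cluster.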
